A study of Mus musculus with 5 samples.

Results

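The nuclear genes for the proteins of the mitochondrial ribosome were read across 5 myeloid populations of mouse bone marrow. Members were all genes of the array annotation whose symbol starts with Mrpl or Mrps followed by a number, pseudogenes left out, each represented by its brightest probe set with a single gene symbol. This gave 77 measured genes, 48 Mrpl and 29 Mrps, of 19938 genes on the array. The annotation lists 78 such symbols. Mrpl53 was the exception, because its probe set is shared with Ccdc142, and it was not used. By the subunit each protein is placed in, 50 members belong to the large subunit, Mrps18a and Mrps30 among them, and 26 to the small subunit. Mrps36 was kept in neither, since its product is also placed in the oxoglutarate dehydrogenase complex.

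The mitochondrial ribosome translates the few proteins that mitochondrial DNA encodes, all of them subunits of the respiratory chain or of ATP synthase. Its RNA comes from mitochondrial DNA, but each of its proteins is encoded in the nucleus, made on cytosolic ribosomes and imported. Part of these proteins have counterparts in bacterial ribosomes, and the rest are particular to mitochondria. In bone marrow the monocyte-dendritic cell progenitor gives rise to dendritic cell and monocyte precursors, and classical monocytes can convert into nonclassical monocytes.

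All 5 populations came from untreated wild-type C57Bl/6 mice, and each was sorted from marrow and hybridised to 1 array. Lineage-negative, CD115-positive cells were divided as follows: MDP, the monocyte-dendritic cell progenitor, by CD117 and CD135; CDP, the common dendritic cell progenitor, by intermediate CD117 with CD135; and cMoP, the common monocyte progenitor, by CD117 without CD135. Classical monocytes carried Ly6C and no TremL4, and nonclassical monocytes carried TremL4 and no Ly6C. Neither the labels nor the design text gives the age of the mice or whether mice were pooled. The genes behind the sort followed the gates: Kit (CD117) stood at 10.11 in MDP and 5.61 in nonclassical monocytes, Flt3 (CD135) at 10.74 in CDP and 6.40 in cMoP, and Treml4 at 11.78 in nonclassical monocytes and at most 6.18 elsewhere. Ly6c2 was not measured. Of markers of other cells, none of 6 T and NK cell genes passed the floor on any array, Ly6g (neutrophils) lay between 4.69 and 4.75, and Pax5 (B cells) stayed at or under 5.54. However, 6 of 9 neutrophil genes passed the floor on some array. Of 7 erythroid genes Klf1, Alas2 and Epor stayed under the floor, while Tfrc, the transferrin receptor of dividing cells, reached 10.01 in CDP, and Car1, Car2 and Ermap passed it on some array. Of 6 B cell genes, Cd79b, a component of the B cell receptor, and Vpreb1 passed the floor, at 8.41 to 9.50 and 6.45 to 6.98.

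Values are the deposited array signals, which run from 1.59 to 14.24 and were taken as log2. A difference of 1 unit is then a factor of 2. The floor for a measurable signal was 6.27, the median of all named genes over the arrays. All 77 members passed it on at least 1 array and 76 passed it on all 5, the exception being Mrps27 at 6.09 in nonclassical monocytes. With 1 array for each population there is no replicate error: no difference below has a test, an SD or a p-value, and this number of arrays sets the precision. A difference was counted when it reached 1.5-fold, and counts in the main comparisons stand beside the share of all genes past the floor that did the same. In sorted bulk samples, fewer cells of a type and less RNA for each cell cannot be told apart.

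Most members had the same highest and the same lowest array. Their median signal was 8.88 in MDP, 8.65 in CDP, 9.15 in cMoP, 8.69 in classical monocytes and 8.03 in nonclassical monocytes. cMoP held the highest of the 5 values in 66 of 77 members (85.7%), against 23.9% of the 11058 genes past the floor. Nonclassical monocytes held the lowest value in 71 members (92.2%), against 37.4% of those genes. Both held together in 63 members (81.8%), against 17% of genes. Among the 7855 genes in the same range of mean signal as the members, a comparison chosen after the values were seen, these shares were 27.4%, 43.7% and 20.5%.

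**Figure D1:**
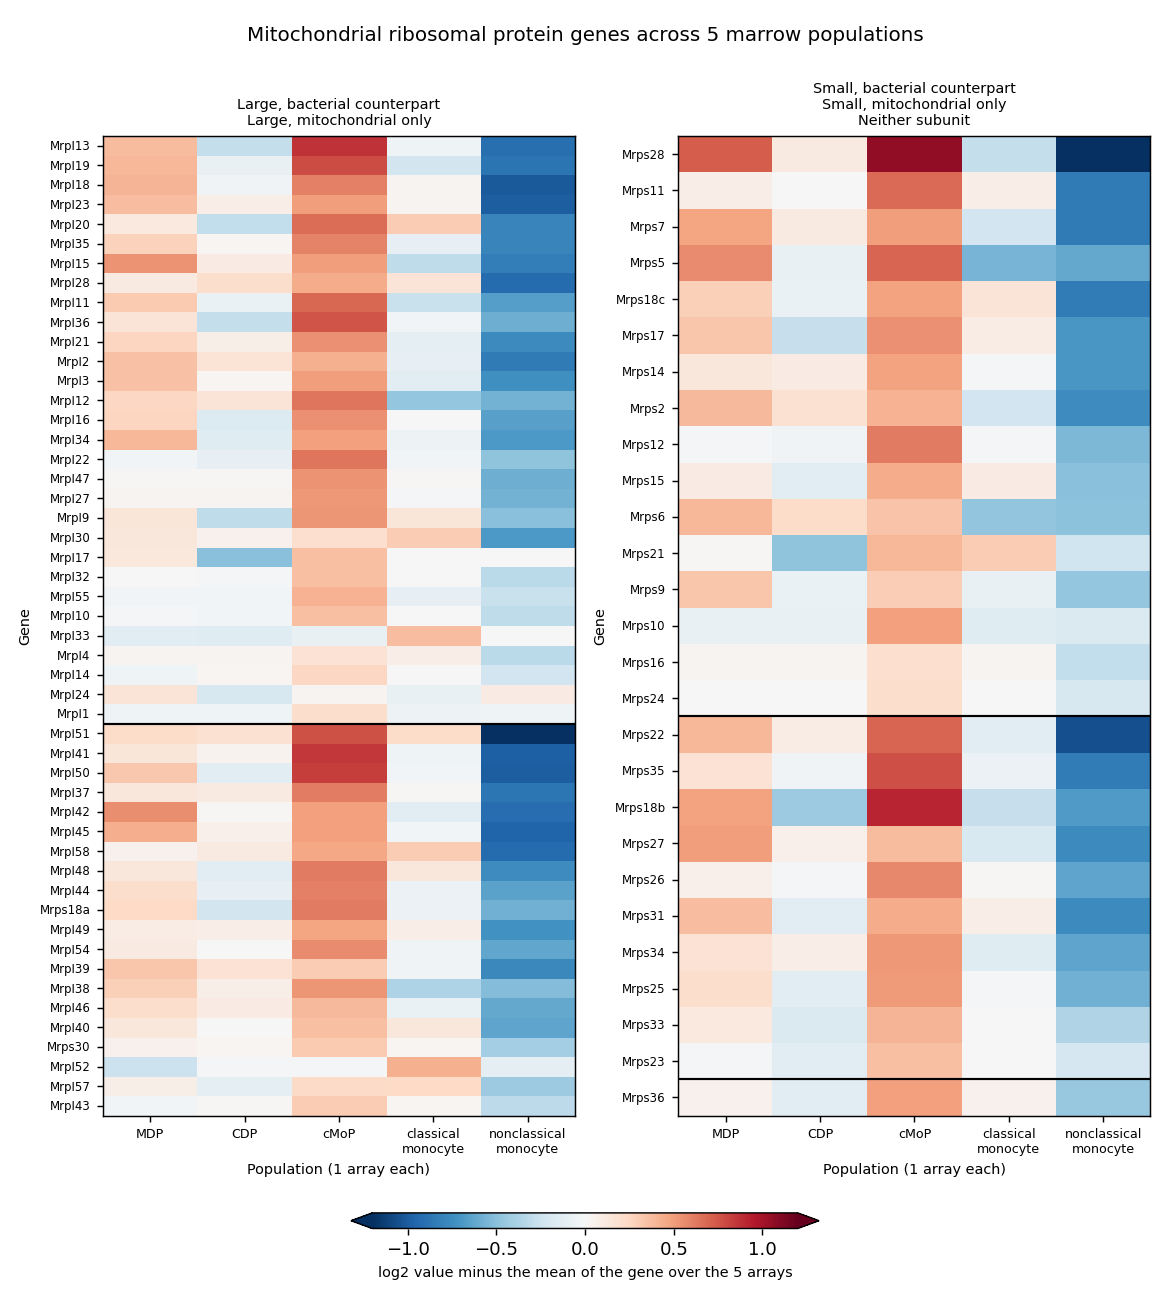
Signal of each of the 77 genes on each of the 5 arrays, as the log2 value minus the mean of that gene over the arrays (colour), with populations in columns and genes in rows. Genes are grouped by subunit and by whether the protein has a bacterial counterpart, and values past the ends of the colour bar share the end colour. The cMoP column is the highest in 66 genes and the nonclassical monocyte column the lowest in 71.

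The exceptions were few. MDP was highest in 7 members (Mrpl15, Mrpl24, Mrpl39, Mrpl42, Mrps6, Mrps9 and Mrps27), against 18.1% of all genes past the floor. Classical monocytes were highest in 4 (Mrpl30, Mrpl33, Mrpl52 and Mrpl57), against 17.8%. CDP was highest in none, against 12.7%. Members with nonclassical monocytes not the lowest were Mrpl1, Mrpl17, Mrpl24, Mrpl33, Mrpl52 and Mrps21. These exceptions are listed in full after their values were seen. The span from lowest to highest array ran from 0.28 to 2.69 log2 units with a median of 1.19. It reached 2-fold in 51 members and stayed under 1.5-fold in 8. The span was not computed over all genes, so these counts have no background share and do not show whether the members are unusual.

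Mrps28, a small subunit protein, had the widest span. Its signal was 10.69 in MDP, 10.08 in CDP, 11.04 in cMoP, 9.69 in classical monocytes and 8.35 in nonclassical monocytes. The highest and lowest arrays differed 6.44-fold, and both monocyte arrays lay below all 3 progenitor arrays. Mrpl51, a large subunit protein particular to mitochondria, followed with 10.59, 10.55, 11.13, 10.59 and 8.98 in the same order, a span of 4.45-fold. On this probe set of Mrpl51 only the nonclassical array stood apart, since the other 4 lay within 0.58 log2 units. A second Mrpl51 probe set read 7.67, 7.54, 8.52, 7.67 and 7.02 in the same order, and there cMoP stood apart as well. Mrpl41, Mrpl50, Mrpl13 and Mrps22 came next, with spans of 1.83, 1.82, 1.77 and 1.75 log2 units. A second Mrpl41 probe set had a narrower span, from 6.92 in nonclassical monocytes to 7.94 in cMoP. At the other end Mrpl1, a protein of the large subunit's L1 stalk, read 8.28 in MDP, 8.28 in CDP, 8.54 in cMoP, 8.27 in classical and 8.28 in nonclassical monocytes, a span of 0.28. Mrpl24, Mrps24 and Mrpl14 were nearly as flat, with spans of 0.35, 0.40 and 0.48.

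CDP and MDP differ in their gate by the level of CD117. The members were slightly lower in CDP: 64 of 77 had a lower value, 5 a higher one and 8 the same, with a median difference of -0.19 against -0.01 over all 10416 genes past the floor. Of those genes 51.5% were lower and 39.9% higher. After quantile normalization 51 members were lower and 26 higher, and 55.9% of all genes were higher. By 1.5-fold, 6 members were lower in CDP, where 6.13% of all genes were, and none was higher, where 4.1% were. That count is near that background share, and it became 3 after quantile normalization. Members of the small subunit had a median of -0.27 and those of the large subunit -0.17.

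Mrps18b, a small subunit protein and one of a set of related S18 proteins, differed most between these progenitors. It read 8.92 in MDP, 7.998 in CDP, 9.35 in cMoP, 8.16 in classical and 7.76 in nonclassical monocytes. CDP was 1.89-fold below MDP and lay nearer to the monocytes than to the other progenitors. Mrpl13, a large subunit protein with a bacterial counterpart, read 9.31, 8.65, 9.80, 8.88 and 8.03 in the same order, with CDP lower than MDP by a difference of -0.66. The other 4 past 1.5-fold were Mrps5, with a difference of -0.66, Mrpl17 and Mrps28 with -0.62 each, and Mrps17 with -0.61. The largest difference the other way was that of Mrpl52, at 0.24, and it did not reach 1.5-fold.

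cMoP lack the CD135 that MDP carry. The value in cMoP was above that in MDP in 70 members and below it in 7. The median difference was 0.32, against 0.00 over 10235 genes, of which 49.8% were higher and 41.9% lower. By 1.5-fold, 6 members were higher, where 5.52% of all genes were, and none was lower, where 5.51% were. As between CDP and MDP in the deposited values, the pattern was one of many small differences mostly in 1 direction rather than of large ones. Between CDP and MDP the direction was less uniform after quantile normalization, with 26 members higher in CDP and 51 lower. The 6 higher in cMoP than in MDP were Mrpl41 (0.70), Mrpl22 (0.67), Mrps12 (0.64), Mrps35 (0.60), Mrps11 (0.60) and Mrpl36 (0.60). Mrpl22 lines the exit tunnel of the large subunit, and Mrps12 sits at the decoding centre of the small subunit. Mrps12 read 9.36 in MDP, 9.34 in CDP, 10.001 in cMoP, 9.36 in classical and 8.84 in nonclassical monocytes, so that cMoP alone stood above the other 4 by more than 1.5-fold. The lowest differences were those of Mrpl24 (-0.13) and Mrps27 (-0.12). Quantile normalization moved the median of all genes in this comparison by 0.10, and the median of the members was then 0.30. Of the members 69 were then higher, against 65.1% of all genes.

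Between the branches, cMoP stood above CDP more widely. A higher value in cMoP was found in 76 of 77 members, with Mrpl52 equal, against 51.7% of 10441 genes, with 41% lower. The median difference was 0.49, a factor of 1.40, against 0.02 over all genes. By 1.5-fold, 28 members were higher, where 12% of all genes were, and none was lower, where 6.83% were. By 2-fold, 3 were higher, where 3.23% of all genes were: Mrps18b (1.35), Mrpl13 (1.15) and Mrpl36 (1.04). This comparison shares its arrays with the 2 before it, so it is no separate evidence.

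Mrpl36, a small zinc-binding protein of the large subunit, read 9.40 in MDP, 8.96 in CDP, 9.996 in cMoP, 9.21 in classical and 8.66 in nonclassical monocytes. cMoP was 2.06-fold above CDP, and CDP lay between the classical and nonclassical arrays. Mrpl50, Mrpl20 and Mrps28 came next, at 0.97, 0.96 and 0.96. Mrpl50 is particular to mitochondria and Mrpl20 has a bacterial counterpart. Mrpl50 read 8.79 in MDP, 8.33 in CDP, 9.30 in cMoP, 8.43 in classical and 7.48 in nonclassical monocytes. The smallest differences were those of Mrpl52 (0.00), Mrpl33 (0.06) and Mrps6 (0.12). After quantile normalization the first 2 were -0.11 and -0.07, and the other 75 members stayed higher in cMoP. The medians of the large and small subunit members were 0.48 and 0.58.

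**Figure D2:**
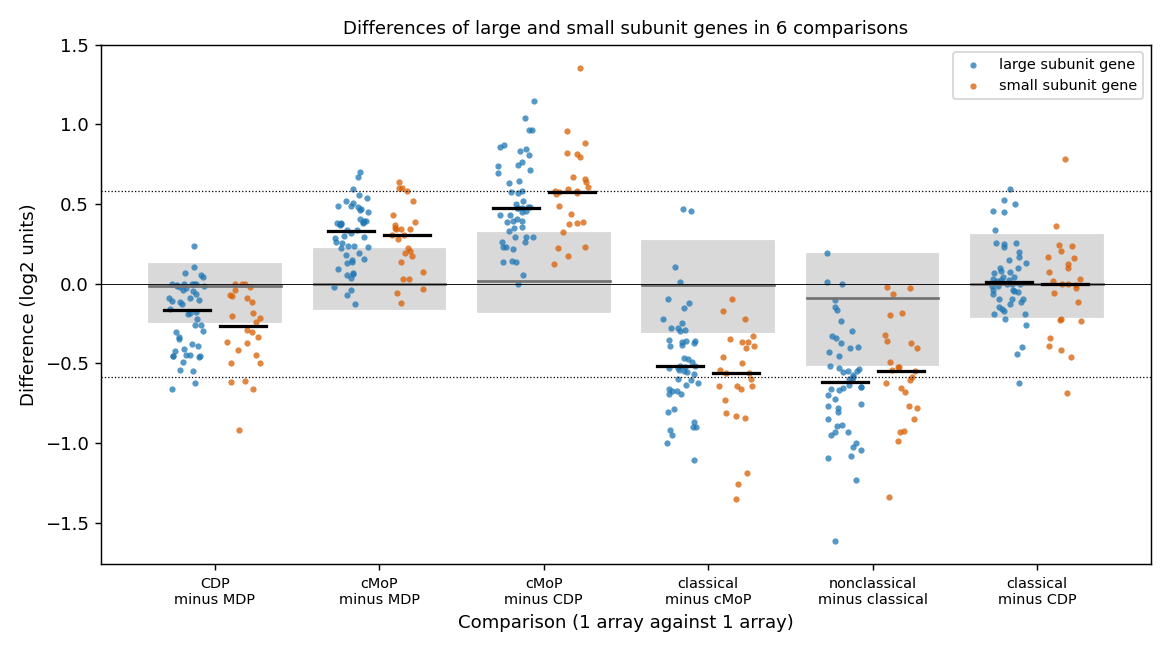
Difference between 2 arrays in log2 units (vertical axis) for each large subunit gene (blue) and small subunit gene (orange) in the 6 comparisons (horizontal axis). Black bars are the medians of each subunit, grey boxes and lines the interquartile range and median of all genes past the floor, and dotted lines mark 1.5-fold. The large and small subunit medians lie together in each comparison, above the box of all genes for cMoP minus CDP (0.48 and 0.58) and around 0 for classical minus CDP.

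Promoters are shown for the members that differed most between CDP and MDP and have an entry in the RefSeq promoter table (GRCm38.p6), Mrps18b, Mrps5, Mrpl17 and Mrps17. Another 5, chosen after their values were seen, are shown because the stretch holds a searched motif and cMoP minus CDP was large. Each is the 150 bases before the first listed start of the gene, 5′ to 3′ on the gene's strand, and capitals mark motif matches on either strand. Mrps18b lies at chr17:35916441-35916590 (minus strand), Mrps5 at chr2:127587276-127587425 (plus), Mrpl17 at chr7:105811088-105811237 (minus) and Mrps17 at chr5:129715347-129715496 (plus). Mrpl36 lies at chr13:73330859-73331008 (plus), Mrpl20 at chr4:155802728-155802877 (plus), Mrpl9 at chr3:94443186-94443335 (plus), Mrps11 at chr7:78782981-78783130 (plus) and Mrps22 at chr9:98601680-98601829 (minus).
Mrps18b: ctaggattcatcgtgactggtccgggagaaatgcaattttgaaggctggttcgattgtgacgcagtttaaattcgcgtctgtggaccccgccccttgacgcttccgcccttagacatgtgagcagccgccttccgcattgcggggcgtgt
Mrps5: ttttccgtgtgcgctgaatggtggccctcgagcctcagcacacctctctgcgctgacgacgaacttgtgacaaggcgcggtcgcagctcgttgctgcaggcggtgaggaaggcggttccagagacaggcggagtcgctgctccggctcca
Mrpl17: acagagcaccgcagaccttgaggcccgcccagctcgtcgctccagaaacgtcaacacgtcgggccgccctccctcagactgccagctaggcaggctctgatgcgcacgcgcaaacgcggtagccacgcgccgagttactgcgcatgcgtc
Mrps17: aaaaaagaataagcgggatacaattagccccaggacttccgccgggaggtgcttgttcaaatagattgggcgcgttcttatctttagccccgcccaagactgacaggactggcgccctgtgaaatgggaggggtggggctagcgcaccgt
Mrpl36: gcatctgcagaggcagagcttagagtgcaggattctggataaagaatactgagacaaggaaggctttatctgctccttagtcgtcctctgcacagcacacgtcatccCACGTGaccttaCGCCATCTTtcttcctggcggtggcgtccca
Mrpl20: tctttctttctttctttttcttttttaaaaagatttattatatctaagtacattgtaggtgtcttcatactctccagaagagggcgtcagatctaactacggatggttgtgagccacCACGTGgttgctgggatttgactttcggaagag
Mrpl9: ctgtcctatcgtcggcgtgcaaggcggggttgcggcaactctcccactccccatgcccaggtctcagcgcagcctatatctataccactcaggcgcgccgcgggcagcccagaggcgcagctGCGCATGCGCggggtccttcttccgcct
Mrps11: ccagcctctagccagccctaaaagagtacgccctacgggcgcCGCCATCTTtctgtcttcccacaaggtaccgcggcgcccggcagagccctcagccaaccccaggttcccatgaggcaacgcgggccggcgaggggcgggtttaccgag
Mrps22: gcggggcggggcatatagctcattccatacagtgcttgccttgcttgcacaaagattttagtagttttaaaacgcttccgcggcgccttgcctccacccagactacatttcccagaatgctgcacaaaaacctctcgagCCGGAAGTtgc

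Motifs searched on both strands were the NRF1 motif (the palindrome in capitals in the stretch of Mrpl9), CCGGAAGT (an ETS motif bound by GABPA), AAGATGGCG (YY1) and CACGTG (the E-box that MYC binds). These factors are known regulators of nuclear genes for mitochondria. The stretches of Mrps18b, Mrps5, Mrpl17 and Mrps17 hold no exact match to any of the 4. Only exact strings were counted, here and in the windows below, so variant forms of a motif were not looked for and may be present. That of Mrpl36 holds a YY1 motif and an E-box, that of Mrpl20 an E-box, that of Mrpl9 the NRF1 motif, that of Mrps11 a YY1 motif and that of Mrps22 the ETS motif. Over windows of 300 bases, from 250 before to 50 after the start, 68 members had 74 windows. The ETS motif was in 12 of these (16.2%), against 3.89% of all 32851 windows and 8.21% of those of genes past the floor. The YY1 motif was in 8 (10.8%), against 1.40% and 3.07%. The NRF1 motif was in 3 (4.05%), against 0.971% and 2.14%, and the E-box in 7 (9.46%), against 7.15% and 10.1%. Of these 7, 3 are overlapping windows of Mrpl2, and by gene the E-box was in 5 of 68 members (7.35%), against 8.09% of all genes in the table. A match describes the letters only and shows no binding.

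The signals of these regulators did not share 1 order over the arrays. Myc read 12.22 in MDP, 10.95 in CDP, 11.46 in cMoP, 8.66 in classical and 5.61 in nonclassical monocytes, highest in MDP and lowest in nonclassical monocytes. Gabpb1, the partner of GABPA, read 8.34, 7.60, 7.61, 7.41 and 6.70 in the same order, and Pprc1, a coactivator of this group, 8.57, 8.01, 8.46, 7.60 and 6.87. Nrf1 and Yy1 were nearly flat, from 7.56 to 7.69 and from 9.04 to 9.23. Myc, Gabpb1 and Pprc1 were highest in MDP, and most members were highest in cMoP. The list held 9 regulators, of which 7 passed the floor on some array, and not all are given here. Whether any of them acts on the members was not tested.

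From cMoP to classical monocytes the members were lower again. In classical monocytes 73 read lower and 4 higher, with a median difference of -0.53 against -0.01 over 10305 genes, of which 50.7% were lower and 41.8% higher. After quantile normalization 74 members were lower, against 63.4% of all genes. By 1.5-fold, 30 members were lower, where 12.3% of all genes were, and none was higher, where 13.8% were. By 2-fold, 4 members were lower, where 4.4% of all genes were. These 4 were Mrps28 (-1.35), Mrps5 (-1.25), Mrps18b (-1.19) and Mrpl12 (-1.11). Mrpl19, just short of 2-fold, and Mrpl11 (-0.95) came next.

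Mrps5, a small subunit protein near the decoding site, read 8.37 in MDP, 7.71 in CDP, 8.50 in cMoP, 7.25 in classical and 7.18 in nonclassical monocytes. Both monocyte arrays lay below every progenitor array and on this probe set differed little from each other. A second Mrps5 probe set read 8.22, 7.63, 8.48, 7.46 and 7.21 in the same order, a difference of -0.25 between the monocytes. Mrpl12 forms the stalk that recruits translation factors to the large subunit, and Mrpl10 and Mrpl11 hold it at its base. Mrpl12 read 9.43, 9.34, 9.82, 8.72 and 8.62 in the same order, 2.15-fold lower in classical monocytes than in cMoP. Mrpl11 read 10.19, 9.81, 10.57, 9.62 and 9.22. Mrpl10 read 9.41, 9.39, 9.79, 9.42 and 9.12, so that the 3 stalk genes shared the cMoP maximum but differed in their step to classical monocytes, at -1.11, -0.95 and -0.36.

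The 4 members that were higher in classical monocytes than in cMoP were Mrpl33 (0.47), Mrpl52 (0.45), Mrpl30 (0.10) and Mrpl57 (0.01, but -0.07 after quantile normalization), none of them by 1.5-fold. All 4 are large subunit proteins. Mrpl33 read 9.64 in MDP, 9.62 in CDP, 9.68 in cMoP, 10.14 in classical and 9.77 in nonclassical monocytes. Mrpl52 read 9.05, 9.29, 9.29, 9.74 and 9.19 in the same order. In both, classical monocytes alone stood apart and the other 4 arrays lay close together. Mrpl33 was the only member in which both monocytes read above every progenitor, against 18% of all genes past the floor.

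The 2 monocyte populations differed in the same direction. In nonclassical monocytes 74 members read lower than in classical monocytes, 2 higher and 1 equal, with a median difference of -0.59, a factor of 1.503. Over 10503 genes the median was -0.09, and 56.3% were lower and 39.4% higher. By 1.5-fold, 40 members were lower, where 21.7% of all genes were, and none was higher, where 8.05% were. After quantile normalization the count of 40 became 23, with a median of -0.42. Then 68 members were lower at all and 9 higher, against 50.4% and 49.5% of all genes. Among genes in the members' range of mean signal, 25.1% were lower by 1.5-fold and 64.2% were lower at all. By 2-fold, 7 members were lower, where 9.82% of all genes were, so the share of large differences was close to the background.

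Mrpl51 had the largest of these differences, at -1.61, followed by Mrps28 (-1.34), Mrpl58 (-1.23), Mrpl20 (-1.09), Mrpl28 (-1.08) and Mrpl18 (-1.04). Mrpl58 is a peptidyl-tRNA hydrolase that is built into the large subunit and can release stalled chains. It read 8.56 in MDP, 8.61 in CDP, 8.96 in cMoP, 8.81 in classical and 7.58 in nonclassical monocytes, so that the nonclassical array alone was low. Mrpl20 read 8.73, 8.32, 9.28, 8.91 and 7.82, with CDP and nonclassical monocytes low. A second probe set of Mrpl51 gave -0.65 in place of -1.61, so the size of that difference depends on the probe set. Mrpl24 (0.19) and Mrpl1 (0.01, but -0.02 with centred arrays and 0.20 after quantile normalization) were higher in nonclassical monocytes, and Mrpl17 was equal. Mrps6, Mrps10, Mrpl12, Mrps24, Mrpl55 and Mrps5 turned from slightly lower to slightly higher after quantile normalization. Medians were -0.62 for the large and -0.55 for the small subunit members. Large subunit members particular to mitochondria had the lowest median of the 4 classes, at -0.74, with 13 of 20 (65.0%) lower by 1.5-fold, where 21.7% of all genes were.

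Nonclassical monocytes read below every other array by 1.5-fold in 33 members (42.9%), against 14.1% of all genes past the floor. cMoP read above every other array by 1.5-fold in 6 members (7.8%), against 1.61%. All 3 progenitors lay above both monocytes in 31 members (40.3%), against 21.3%. By 1.5-fold this held in 2 members, Mrps6 and Mrpl12, with gaps of 0.69 and 0.62 between the lowest progenitor and the highest monocyte, where 2.79% of all genes did so. That share is no higher than the background. Mrps6, a small subunit protein, read 8.91 in MDP, 8.73 in CDP, 8.85 in cMoP, 8.04 in classical and 8.02 in nonclassical monocytes, 2 flat levels with a step between them. Without the CDP array, a choice made after the values were seen, the count was 11 in place of 2 (14.3% of members), where 6.46% of all genes past the floor met the same rule.

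Between CDP and classical monocytes the members had no common direction. Classical monocytes read higher in 38, lower in 34 and equal in 5, with a median difference of 0.00. Over 10469 genes 48% were higher and 44.4% lower. By 1.5-fold, 2 members were higher in classical monocytes, where 14% of all genes were, and 2 were lower, where 7.47% were. Mrps21 (0.78) and Mrpl20 (0.59) were higher, and Mrps6 (-0.69) and Mrpl12 (-0.62) lower. Mrpl20 was at 0.48 after quantile normalization and Mrpl12 at -0.53 with centred arrays, both short of 1.5-fold. Mrps21 read 10.25 in MDP, 9.76 in CDP, 10.64 in cMoP, 10.54 in classical and 10.001 in nonclassical monocytes. Quantile normalization gave a median of -0.12 here, with 24 members higher and 53 lower, and centring gave 53 higher and 24 lower, so the direction of this median depends on the scaling.

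The comparisons cMoP minus CDP and nonclassical minus classical share no array. Of the 28 members higher in cMoP and the 40 lower in nonclassical monocytes, 16 were in both sets, 57.1% of the first and 40% of the second. Of all 77 members 51.9% were lower in nonclassical monocytes, so the 28 were near the share of the members as a whole. Over all genes past the floor the overlap was 43.8% of the first set and 24.1% of the second. Of those genes only 20.6% were lower in nonclassical monocytes and 11.3% higher in cMoP, so there the overlap lay above these shares. Across the 77 members the differences had Pearson's r of -0.23 and Spearman's rho of -0.25. Across the 11058 genes past the floor they had -0.22 and -0.36. Genes of 1 complex on the same 4 arrays are not independent points, and this relation is no stronger among the members than among all genes. Among those far out in both comparisons were Mrps28 (0.96 and -1.34), Mrpl20 (0.96 and -1.09), Mrpl50 (0.97 and -0.95) and Mrpl13 (1.15 and -0.85). Mrpl17 and Mrps5 were so in the first alone, with 0.86 and 0.79 against 0.00 and -0.06, and Mrpl58 in the second alone, with -1.23 against 0.36.

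**Figure D3:**
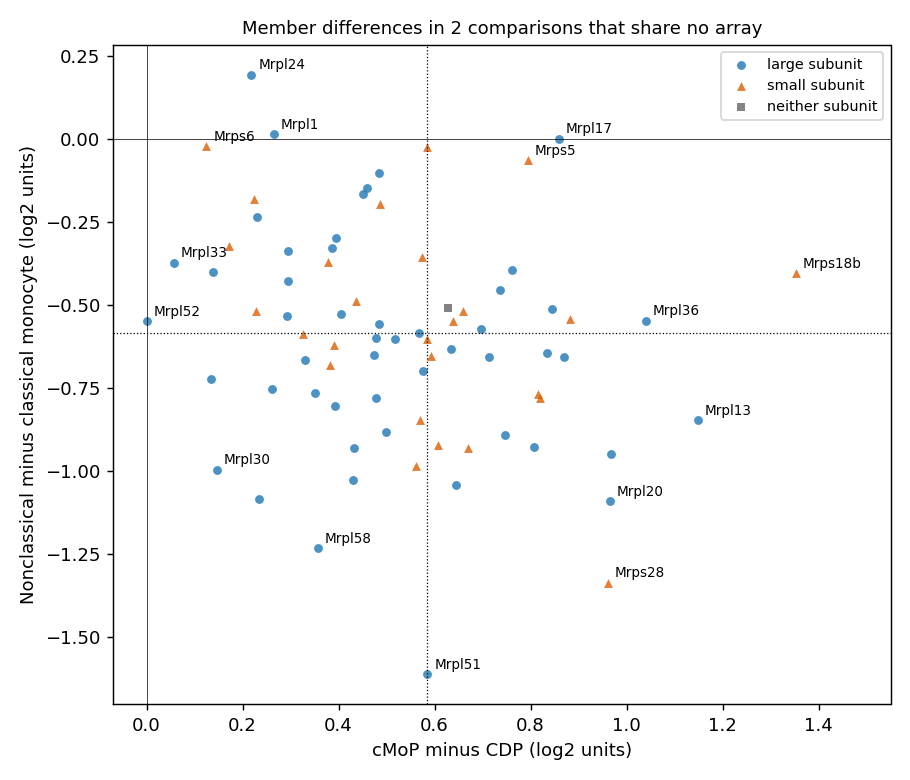
Difference between nonclassical and classical monocytes (vertical axis) against the difference between cMoP and CDP (horizontal axis), both in log2 units, with 1 point for each of the 77 genes (circles large subunit, triangles small subunit, square neither). Dotted lines mark 1.5-fold. The lower right corner past both lines holds 16 genes, and r over all points is -0.23.

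Other genes of mitochondrial translation were read from lists. Dap3, Ptcd3, Chchd1 and Gadd45gip1 encode mitochondrial ribosomal proteins under other symbols. In all 4 every progenitor read above both monocytes, as in 21.3% of all genes past the floor. In Dap3 that gap was narrow, with 8.13 in CDP and 8.11 in classical monocytes. Chchd1 read 9.37 in MDP, 9.08 in CDP, 9.80 in cMoP, 8.84 in classical and 8.35 in nonclassical monocytes, an order like that of most members. Ptcd3 was highest in MDP, at 8.44 against 8.12 in cMoP. Of 15 translation factors, 2 were higher by 1.5-fold in cMoP than in CDP, Lrpprc (0.85) and Mtrf1 (0.66), and the median was 0.39. That is 13.3% of them, near the 12% of all genes. In nonclassical against classical monocytes 4 were lower (26.7%, where 21.7% of all genes were) and none higher, with a median of -0.43. Lrpprc, which stabilises mitochondrial messenger RNA, had the largest of these differences at -0.92, and Mrrf, the ribosome recycling factor, followed at -0.78.

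Assembly factors of the mitochondrial ribosome differed less. Of 26, 1 was higher by 1.5-fold in cMoP than in CDP, Fastkd2 (0.75), where 12% of all genes were. In classical monocytes 4 were lower than in cMoP (15.4%, where 12.3% of all genes were). Between the monocytes the median of the 24 past the floor was -0.02, with 2 lower, Noa1 (-1.57) and Gtpbp10 (-0.85), and 1 higher, Mrm1 (0.64). Both Noa1 and Gtpbp10 are GTPases. Of 18 measurable genes for mitochondrial aminoacyl-tRNA synthetases and the related amidotransferase, which charge the tRNAs, 4 were lower in classical monocytes than in cMoP (22.2%, against the same 12.3%), led by Yars2 (-1.16) and Rars2 (-0.96). None of the 17 past the floor differed by 1.5-fold between the monocytes. Of 12 genes that copy and transcribe mitochondrial DNA or process its RNA, 4 were higher in cMoP than in CDP (33.3%, where 12% of all genes were). Tfam, which packages mitochondrial DNA, was the first of these at 0.76.

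The 71 nuclear genes of the respiratory chain and ATP synthase had a like profile. Medians were -0.09 for CDP minus MDP, 0.28 for cMoP minus MDP, 0.37 for cMoP minus CDP, -0.30 for classical minus cMoP and -0.66 for nonclassical minus classical. cMoP was highest in 62 of the 71 (87.3%) and nonclassical monocytes lowest in 66 (93.0%). From cMoP to classical monocytes 4 of the 71 were lower by 1.5-fold (5.63%, where 12.3% of all genes were), compared with 30 of the 77 members. Between the monocytes 44 of the 71 were lower (62.0%, where 21.7% of all genes were), compared with 40 of 77. The 57 measurable genes for cytosolic ribosomal proteins moved less, with medians of -0.11, -0.02, 0.08, -0.13 and -0.15 in these 5 comparisons, and cMoP was highest in 19 (33.3%). Whether the lists differ was not tested, since there is 1 array for each population.

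**Figure D4:**
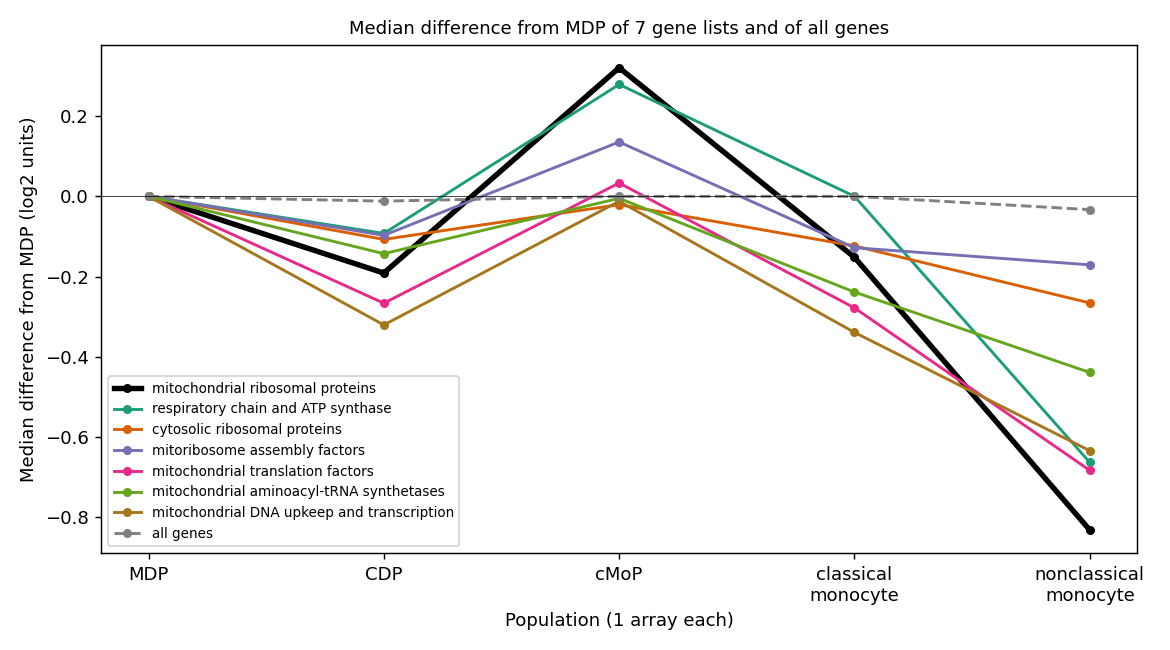
Median difference from MDP in log2 units (vertical axis) in each population (horizontal axis) for the mitochondrial ribosomal protein genes, 6 other lists and all genes past the floor. The mitochondrial ribosomal protein genes run from 0.32 in cMoP to -0.83 in nonclassical monocytes, while all genes stay near 0.

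Genes of cell division moved with part of this pattern. All 16 proliferation markers were lower in nonclassical than in classical monocytes, where 56.3% of all genes were. Their median was -3.59, and Top2a read 11.28 in classical and 6.16 in nonclassical monocytes. Between CDP and cMoP 10 of the 16 were higher in cMoP, where 51.7% of all genes were, so that count is near the background. By 1.5-fold none was higher, where 12% of all genes were. Mki67 and Cenpf were lower by 1.5-fold (12.5%, where 6.83% of all genes were). Their median there was 0.15, against 0.02 over all genes. From cMoP to classical monocytes their median was -0.25. There 4 were lower by 1.5-fold (25%, where 12.3% of all genes were) and 1 higher (6.25%, where 13.8% were). Of 9 neutrophil genes, which monocytes express in part, 6 passed the floor on some array. They ranged from 4.63 to 12.64 in classical and from 4.32 to 8.18 in nonclassical monocytes, and the highest were S100a8 and S100a9. Ly6g and Ltf stayed under the floor on every array. The list also holds Camp, Ngp, Mmp8, Mmp9 and Cxcr2, and most of these passed it on some array. From cMoP to classical monocytes 5 of the 6 neutrophil genes past the floor were higher by 1.5-fold (83.3%, where 13.8% of all genes were) and 1 was lower. The part of division or of other cells in the members' differences was not tested.

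Repeat measurements within the arrays were available for 8 members with a second probe set. In all 8 of these second probe sets cMoP was highest and nonclassical monocytes lowest. Their differences ran from 0.41 to 0.98 for cMoP minus CDP and from -1.05 to -0.16 for nonclassical minus classical. Equal values are frequent in the deposited table: in 21 of the 77 members (27.3%) at least 2 arrays hold the same value, against 28.4% of genes in the same range of mean signal. MDP and classical monocytes were equal in 12 members, CDP and MDP in 8. No source used here says how the equal values arose.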

How the data were processed

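Per the labels, the 5 populations were sorted by flow cytometry, RNA was extracted with a column kit and labelled with biotin, and 1 array was hybridised for each. The deposited values are 1 log2 number for each of 35556 probe sets. The log base was read from the values, so each fold depends on that reading. No source used here gives the normalization or the software. Probe sets were named through the platform annotation: 21789 had 1 gene symbol, 1621 several and 12146 none. Each gene took its probe set with the highest mean. Differences between arrays were counted at 1.5-fold, and also at 2-fold, where the higher array reached 6.27. No test was possible with 1 array in each group. Counting was checked on simulated data with little noise and shifts well past 1.5-fold. That check covers the code and not the variation of real arrays. Members and lists were chosen with earlier results of these data known. Genes named are the 6 largest differences in each direction of each comparison (fewer where members ran out or the rest were near 0), the 6 widest and 4 narrowest spans, the progenitor and monocyte exceptions, and, of other lists, up to 4 past 1.5-fold. Single further genes were chosen after their values were seen. Alternatives were another scaling (median centring or quantile normalization), averaged probe sets, other floors, 2-fold, leaving out Mrps36 and leaving out CDP. Python 3.11.15, pandas 2.3.3 and numpy 2.4.6 were used.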

Additional observations from a re-analysis of the deposited data

How the results depend on the processing

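Of 136 alternative values for 24 results, 120 stayed near the reported value (within 0.1 log2 units or 1.5 times) and 16 moved. A reversal could be scored only for medians of at least 0.1 log2 units, and none of these reversed. Counts and smaller medians could not be scored so. Among them was classical minus CDP, whose direction depends on the scaling. Leaving out the floor could change nothing, since all 77 members passed it in every comparison. With arrays centred on the median of named genes, 4 members were higher and 1 lower in classical monocytes than in CDP by 1.5-fold, and 1 had every progenitor above both monocytes by 1.5-fold. By 1.5-fold, quantile normalization gave 3 members lower in CDP than in MDP, 23 lower in nonclassical than in classical monocytes, and 1 higher in classical monocytes than in CDP, with a median of -0.12 for the last pair. It left cMoP highest in 67 members and nonclassical monocytes lowest in 65. At 2-fold the counts were 0 for CDP lower than MDP, 0 for cMoP higher than MDP, 3 for cMoP higher than CDP, 4 for classical lower than cMoP, 7 for nonclassical lower than classical, 0 and 0 for classical against CDP, and 0 for every progenitor above both monocytes. Without the CDP array, added after the values were seen, 11 members had both remaining progenitors above both monocytes by 1.5-fold, as did 6.46% of all genes past the floor. The cause of the other shifts was not tested. A higher fold counts fewer genes by construction. No paired analysis was possible because each population has 1 array and the labels give no replicate numbers. No array could be left out within a population for the same reason. Signals near the floor limit the members little, since 76 of 77 passed it on every array.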
